A study of Mus musculus with 16 samples.

Results

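Complement is a cascade of secreted proteins, receptors and inhibitors that tags material for removal. C1qa, C1qb and C1qc encode the 3 chains of C1q, the recognition molecule of the classical pathway; bound C1q leads to cleavage of C4 and then of C3, whose fragments are opsonins, and C3a and C5a signal through the receptors C3ar1 and C5ar1. Serping1 encodes C1 inhibitor, which blocks the proteases that travel with C1q. In brain, C1q is known as a product of microglia, and C1q and C3 are known for tagging synapses that microglia remove.

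The genes described here are these 8: C1qa, C1qb, C1qc, C3, C4b, C3ar1, C5ar1 and Serping1, out of 32285 genes in the deposited matrices. They were chosen by symbol, and all 8 had at least 1 unique molecular identifier (UMI, a tag that counts 1 captured RNA molecule once) in the data set as a whole, from 115 UMIs for C3 to 8875 for C1qa. A further 47 genes of the cascade and its regulators were followed as a list. Counts were summed over the nuclei of each class in each library, and levels are given as CPM, the UMIs of a gene scaled to 1000000 UMIs of that class in that library. Counts come from 3′ libraries, and the authors state that reads on unspliced RNA were counted too. Levels of 1 gene are therefore compared between classes and groups, and no ranking between genes is drawn.

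Single-nucleus RNA-seq was performed on hippocampi of male mice in 4 groups of 4 libraries. Wild-type (WT) C57BL/6 mice aged 2 months 23 days and Ifnar1-/- mice (KO) aged 3 months 3 days, which lack a chain of the type I interferon receptor in every cell, received either vehicle or DMXAA, an agonist of mouse STING that induces type I interferon. The comparison asks which complement genes move with DMXAA, in which cells, and whether they do so without the receptor. Genotype coincides with age and with the set of animals, and these cannot be told apart. The labels do not say which animals stand behind each library, so p-values measure the spread between these libraries.

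Of 155084 barcodes, 108878 nuclei were kept, 5163 to 9237 per library with 32662913 to 51782409 UMIs, and pairs of libraries shared 3 to 24 barcodes. Markers that held no complement gene named 13 classes; 4735 nuclei were microglia, 14155 astrocytes, 18091 oligodendrocytes, 3428 oligodendrocyte precursor cells (OPCs) and 402 border macrophages. Ifnar1 stood at 10.8 to 12.7 CPM over all nuclei of the 8 KO libraries and 13.3 to 19.2 CPM in the 8 WT libraries, but the place of the deletion is not given in the sources used here, so these 3′ counts do not test it. The mean log2(CPM + 1) of 10 interferon-stimulated genes in microglia was 5.37 to 7.76 in WT DMXAA, 2.12 to 3.52 in WT vehicle and 1.63 to 2.05 in the KO libraries. One library stood apart: WT DMXAA replicate 3 had the lowest Ifnar1 level of WT, the lowest interferon-stimulated level of its group, and 121 nuclei in the border macrophage class against 4 to 15 in the other WT DMXAA libraries. When nuclei were clustered more finely (Leiden resolution 1.0), it had 13 nuclei in oligodendrocyte cluster 2, which held 773 to 1196 in every other WT library, and 1163 in cluster 5, which held 511 to 620 in the KO libraries and 22 to 203 in the other WT ones. The border macrophage class of this library also carried 249 UMIs of S100a8 and 502 of S100a9, neutrophil genes that reached at most 5 and 9 UMIs in any other library. Of its 121 nuclei, 77 held a UMI of S100a8, S100a9 or Cd177 and 37 one of the macrophage genes Mrc1 or F13a1. The 7 border macrophage markers summed to 2437 CPM there, against 8779.5 to 12489 CPM in WT vehicle, and the 6 monocyte and neutrophil markers to 3145 CPM, so the class name goes against most of these nuclei. Values without this library stand beside the results that turn on it.

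C1qa, C1qb and C1qc lie next to each other on the minus strand of chromosome 4 (GRCm38), at 4:136895917-136898803, 4:136880129-136886187 and 4:136889804-136893065, a span of 18675 bases. Because the 3 chains followed one pattern over classes, the 300 bases around the start of the genes that the RefSeq table (GRCm38.p6) lists are shown, 250 bases before the start site to 50 after it, read 5′ to 3′ on the minus strand. The start sites are those of that table. The C1qc gene coordinates given above reach 136893065, well inside its window, so its start site there lies downstream of that gene end. Capitals mark the letters GAGGAAG on either strand, the core of a site for PU.1, the myeloid transcription factor.
C1qb, chr4:136886151-136886450: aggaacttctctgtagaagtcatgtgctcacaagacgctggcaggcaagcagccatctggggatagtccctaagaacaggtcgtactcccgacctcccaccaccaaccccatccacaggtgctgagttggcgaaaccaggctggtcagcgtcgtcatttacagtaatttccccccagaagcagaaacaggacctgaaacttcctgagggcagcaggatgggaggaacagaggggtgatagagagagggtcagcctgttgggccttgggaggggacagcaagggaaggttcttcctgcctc
C1qc, chr4:136892865-136893164: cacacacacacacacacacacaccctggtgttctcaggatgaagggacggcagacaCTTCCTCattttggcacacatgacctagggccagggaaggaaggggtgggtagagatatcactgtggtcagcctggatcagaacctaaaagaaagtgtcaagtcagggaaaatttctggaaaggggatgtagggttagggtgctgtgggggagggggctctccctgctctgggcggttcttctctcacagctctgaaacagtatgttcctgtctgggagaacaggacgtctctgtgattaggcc
These letters in full occurred once in the C1qc window and not in the C1qb window, and 13.6% of 32851 promoters of this length held them. Shorter runs such as GAGGAA, which stands in the C1qb window, were not searched, so a PU.1 site is not shown to be missing there. Neither window held the core of an interferon-stimulated response element (GAAA, any 2 bases, GAAA), which 3.44% of all promoters held on either strand. The windows of C3, C3ar1 and C5ar1 held neither motif. A match is a description of letters and not of binding.

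C1q was a product of microglia and border macrophages. Over the 8 vehicle libraries C1qa stood at 726 ± 254 CPM (SD, n = 8) in microglia and 666 ± 272 CPM (n = 6) in border macrophages. The third class in order, Cajal-Retzius neurons, had 8.41 ± 9.33 CPM. C1qb was at 550 ± 250 CPM in microglia and 558 ± 226 CPM in border macrophages, with 7.79 CPM or less in every other class. C1qc was at 556 ± 186 CPM in microglia and 601 ± 300 CPM in border macrophages, with 6.91 CPM or less elsewhere. The difference between microglia and border macrophages lay within the spread of the libraries for each chain. The drop from the second to the third class was seen in 5 of 5 libraries that had both classes, by a mean of 6.02 to 7.12 on the log2(CPM + 1) scale, although 5 libraries allow no two-sided exact sign-flip p below 0.0625.

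At the level of single nuclei, 67.6% of 2247 vehicle microglia held a C1qa UMI, and 48.5% did when each nucleus was thinned to 1000 UMIs. In excitatory neurons, which are not known as a source of C1q and where a UMI can come from free RNA in the droplets, the shares were 1.17% and 0.156% (median depth 8591 UMIs, against 1855 in microglia). The share with C1qb was 57.1% in microglia and 0.801% in excitatory neurons, and that with C1qc was 59.6% and 0.769%. Levels of C1q outside microglia and border macrophages were a few CPM. No profile of empty droplets was used here, and the source of these UMIs was not tested.

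**Figure D1:**
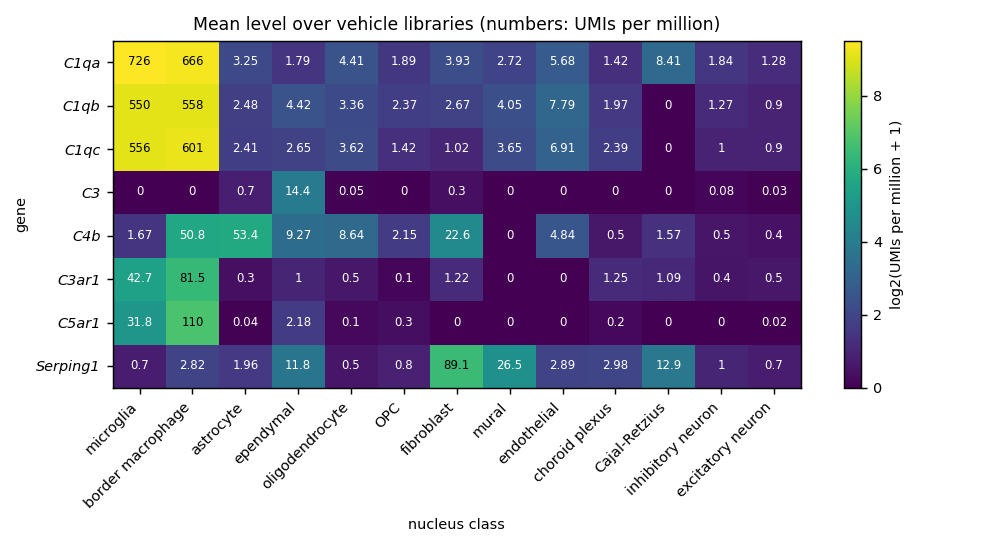
Mean level of each member (rows) in 13 nucleus classes (columns) over the vehicle libraries that held at least 20 nuclei of the class. Colour is log2(CPM + 1) and the printed number is the mean CPM; C1q and both receptors peak in microglia and border macrophages, C4b in astrocytes and border macrophages (53.4 and 50.8 CPM), and Serping1 in fibroblasts (89.1 CPM).

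C3ar1, the receptor of C3a, and C5ar1, the receptor of C5a, followed C1q into the same classes. C3ar1 (6:122847138-122856161) stood at 81.5 ± 57.1 CPM (n = 6) in border macrophages and 42.7 ± 12.6 CPM (n = 8) in microglia, and at 1.25 CPM or less in every other class. C5ar1 (7:16246743-16259540) stood at 110 ± 54.1 CPM in border macrophages and 31.8 ± 16.7 CPM in microglia. C5ar1 was higher in border macrophages than in microglia in 6 of 6 vehicle libraries, by 1.69 on the log2 scale (two-sided exact sign-flip p = 0.0313, the smallest that 6 libraries allow; adjusted p = 0.333 over 96 neighbouring pairs of classes). For C3ar1 the corresponding order held in 4 of 6 libraries (exact p = 0.219). The border macrophage values rest on 1 to 12 UMIs per library for C3ar1 and 1 to 13 for C5ar1. A C3ar1 UMI was found in 7.43% of vehicle microglia and 0.463% of excitatory neurons, and a C5ar1 UMI in 5.70% and 0.0180%.

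C4b (17:34728380-34743882), the mouse gene for the C4 protein that the classical pathway cleaves after C1, had another source. In vehicle it stood at 53.4 ± 16.8 CPM in astrocytes (n = 8), 50.8 ± 28.9 CPM in border macrophages (n = 6), 22.6 ± 5.96 CPM in fibroblasts and 8.64 ± 5.26 CPM in oligodendrocytes. OPCs (2.15 ± 1.5 CPM) and microglia (1.67 ± 1.89 CPM) were low, and excitatory neurons were at 0.379 ± 0.101 CPM. Astrocytes and border macrophages did not differ beyond their spread (higher in astrocytes in 2 of 6 libraries, exact p = 0.625), whereas fibroblasts were above ependymal cells, the next class, in 6 of 6 (exact p = 0.0313, adjusted p = 0.333). The border macrophage values rest on 18 UMIs in all 8 vehicle libraries together.

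C3 (17:57203970-57228136), the central component of the cascade, was almost absent. Ependymal cells, with 14.4 ± 7.79 CPM (n = 6), were the only class above 1 CPM in vehicle. They were above astrocytes in 6 of 6 libraries (exact p = 0.0313, adjusted p = 0.333). The ependymal values rest on 1 to 10 UMIs per library. No C3 UMI was seen in 2247 vehicle microglia, which allows a share of up to 0.134% of nuclei with a UMI. In astrocytes C3 had 0 to 6 UMIs per library in all 16 libraries. The limit for microglia pools the nuclei of 8 libraries at a median depth of 1855 UMIs and covers counting error only; a lower level was not detectable at this depth.

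Serping1 (2:84765387-84775444) had its highest mean in fibroblasts. It stood at 89.1 ± 24.6 CPM in fibroblasts (n = 8) and 26.5 ± 14.5 CPM in mural cells (n = 7), and was higher in fibroblasts in 7 of 7 libraries (log2 difference 1.80, exact p = 0.0156, adjusted p = 0.333). The mural values rest on 1 to 3 UMIs per library. Cajal-Retzius neurons (12.9 ± 5.27 CPM) and ependymal cells (11.8 ± 6.4 CPM) came next and did not differ beyond their spread. Their values rest on 1 to 3 and 0 to 5 UMIs per library. A UMI was found in 22.6% of vehicle fibroblasts, 0.603% of excitatory neurons and 0.134% of microglia. Over the 8 genes, none of the 96 neighbouring pairs passed an adjusted p of 0.05, at 5 to 8 libraries per pair for most of them. The order was set on these same libraries, some pairs were 0 against 0, and so few libraries allow no small exact p. The adjusted test could hardly be passed, so its outcome does not show that classes were alike.

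C4b was the only one of the 8 genes called with DMXAA. Of 11 classes with a fit, 6 held a member above the count filter, in 23 pairs of a member and a class, of which 2 were called in WT (edgeR quasi-likelihood test, adjusted p under 0.05 over all genes of the class and a log2 fold change beyond 0.1), both of them C4b and both higher, in astrocytes and OPCs. The OPC pair passed the filter only through the WT DMXAA libraries, where it is high, so the astrocyte call is the one free of this limit. None was called in KO, where no pair had an unadjusted p under 0.05 and the lowest adjusted p was 0.808; in WT, 6 pairs had one. Of all genes, 0% to 1.87% were called per class in WT and 0% to 0.0229% in KO. Of the 7 genes that could be fitted, C3 being too low in every class, the other 6 had no call with DMXAA in either genotype.

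In astrocytes the 4 WT vehicle libraries stood at 64.1, 79.5, 73.2 and 38.1 CPM and the 4 WT DMXAA libraries at 226, 193, 120 and 141 CPM. Every WT DMXAA library lay above every WT vehicle library, and the lowest of them was replicate 3. The log2 fold change was 1.51 ± 0.20 (SE; edgeR adjusted p = 0.00177), which is 2.85-fold. The fit on the WT groups alone ended the call at the same size (1.51 ± 0.25, adjusted p = 0.196). In this comparison 0.247% of all 13350 genes tested were called, and 0.787% had all 4 DMXAA libraries above all 4 vehicle libraries. The 4 KO vehicle libraries were at 42.8, 35.9, 41.8 and 52.2 CPM and the KO DMXAA libraries at 52.2, 51.6, 45.9 and 60.1 CPM. These overlapped, with a log2 fold change of 0.27 ± 0.20 (adjusted p = 0.878). More astrocytes held a C4b UMI: 35.2% of 3038 nuclei in WT DMXAA against 14.0% of 3385 in WT vehicle, or 15.2% against 5.85% after thinning to 1000 UMIs, at median depths of 2934.5 and 2933 UMIs. In KO the shares were 13.1% and 12.1%.

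In OPCs, which carried little C4b at rest, the WT vehicle libraries stood at 3.55, 3.02, 2.83 and 4.38 CPM and the WT DMXAA libraries at 38.0, 46.9, 12.6 and 23.2 CPM. The groups did not overlap, on 13 UMIs in vehicle and 108 in DMXAA, and 0.843% of genes were apart in this direction. The log2 fold change was 3.16 ± 0.47 (edgeR adjusted p = 0.00142), or 8.94-fold, in a comparison that called 0.185% of genes. A gene that enters the fit only through the group where it is high, as C4b did in OPCs, had to differ. With no filter the log2 fold change was 3.13 ± 0.42 (adjusted p = 2.55e-10), and limma-trend, with 2.70 ± 0.55, ended the call (adjusted p = 0.0602). In KO, C4b had 3 UMIs in the vehicle libraries and 10 in the DMXAA libraries, with 0 to 6 per library and a pooled ratio of 2.88 (95% interval 0.742 to 16.3, counting error only), and the pair was not called (adjusted p = 0.907). A C4b UMI was found in 10.7% of 878 WT DMXAA OPCs, against 1.39% of WT vehicle OPCs and 0.672% of WT DMXAA excitatory neurons.

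In microglia C4b fell below the count filter when all libraries were used. It was nearly absent outside WT DMXAA, and within that group replicate 3 was the lowest, at 10.8 CPM. Without that library C4b passed the filter. At the finer clustering, microglia split into cluster 26, with 1034 nuclei of which 95.3% were WT DMXAA, and cluster 7, with 3701 nuclei of which 12.3% were WT DMXAA and 34.5% WT vehicle, so that most WT DMXAA microglia lay apart from those of the other groups. The WT vehicle libraries held 0, 1, 1 and 4 UMIs and the WT DMXAA libraries 48, 16, 9 and 16 UMIs, which are 0 to 5.66 CPM against 10.8 to 66.4 CPM. The groups did not overlap. Of the genes above the count filter, which leave out C4b, 2.37% did not overlap in this direction. The pooled ratio was 13 (95% interval 5.76 to 36.5, counting error only). Single libraries moved it: it was 7.98 without WT DMXAA replicate 1, which held 48 of the 89 UMIs, and 28.4 without WT vehicle replicate 4, which held 4 of the 6. The exact permutation test of the CPM values, two-sided, gave p = 0.0286, the smallest that 4 against 4 allows, and an adjusted p of 0.733 over the 56 exact tests of members below the filter. In KO microglia C4b had 2 UMIs in vehicle and 3 in DMXAA, at or under the floor of 3 counts, so no fold is given. With no filter on low counts the edgeR fit gave a log2 fold change of 3.65 ± 0.63 in WT (adjusted p = 0.000235; 1.07% of genes called). A C4b UMI was found in 5.62% of WT DMXAA microglia and 0.453% of WT vehicle microglia.

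In oligodendrocytes the WT vehicle libraries stood at 16.1, 15.9, 12.3 and 4.53 CPM and the WT DMXAA libraries at 41.8, 59.7, 15.0 and 25 CPM. Replicate 3 of DMXAA lay inside the vehicle range and the other 3 libraries above it. The log2 fold change was 1.63 ± 0.37 and was not called (edgeR adjusted p = 0.225; 0.0166% of genes called). Without WT DMXAA replicate 3 it was 1.85 ± 0.28 with an adjusted p of 0.00207, in a fit that called 2.7% of genes. In KO oligodendrocytes the vehicle libraries were at 4.11, 3.82, 5.68 and 6.74 CPM and the DMXAA libraries at 9.72, 8.26, 7.58 and 8.66 CPM. These did not overlap, as 4.05% of genes did in this direction, but the log2 fold change of 0.72 ± 0.45 was not called (adjusted p = 0.953). At the finer clustering the genotypes held the oligodendrocyte clusters in different shares. In cluster 2, with 74.9% of WT vehicle oligodendrocytes and 7.6% of KO vehicle ones, pooled C4b was 13.1 CPM in WT vehicle and 44.5 CPM in WT DMXAA, and 8.32 and 10.8 CPM in KO. In cluster 5, with 60.8% of KO vehicle oligodendrocytes and 9.05% of WT vehicle ones, it was 5.45 CPM in KO vehicle and 8.86 CPM in KO DMXAA, and 12.2 and 14.7 CPM in WT, where 1163 of the 1232 WT DMXAA nuclei came from replicate 3. In cluster 6, which all libraries shared, it was 11.3 and 31.8 CPM in WT and 4.01 and 7.38 CPM in KO.

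**Figure D2:**
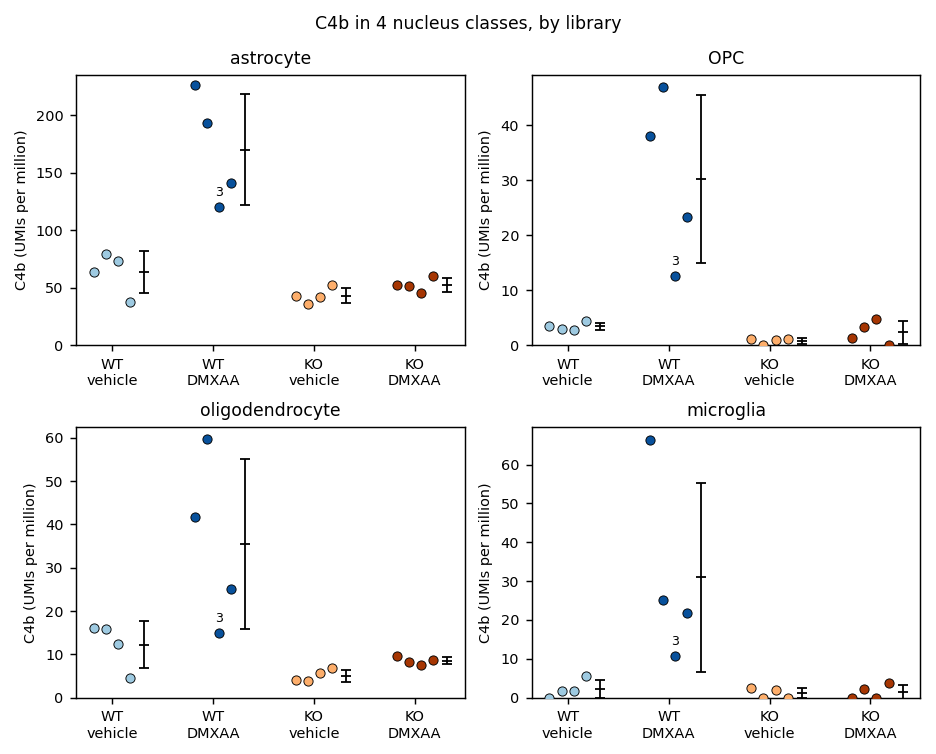
C4b in CPM (on the vertical axis, from 0) in each library of the 4 groups, for astrocytes, OPCs, oligodendrocytes and microglia. Points are libraries, the bar beside them is the mean ± SD of 4, and WT DMXAA replicate 3 carries the number 3; it is the lowest WT DMXAA point in each panel, and above every WT vehicle point in all panels except that of oligodendrocytes.

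C4b was also fitted in fibroblasts and excitatory neurons. In fibroblasts the mean was 23.9 ± 5.12 CPM in WT vehicle and 43.1 ± 8.69 CPM in WT DMXAA (log2 fold change 0.88 ± 0.28, edgeR adjusted p = 0.711). The libraries overlapped only through replicate 3 of DMXAA, at 30.2 CPM, since the other 3 lay at 46.5 to 48.9 CPM and the highest vehicle library at 30.5 CPM. Without it the log2 fold change was 1.03 ± 0.30 (adjusted p = 0.156). In excitatory neurons it was 0.402 ± 0.118 CPM and 0.861 ± 0.434 CPM (1.15 ± 0.36, adjusted p = 0.769), from at most 34 UMIs in any of these libraries.

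The difference between the genotypes in the response of C4b was tested as an interaction. It was 1.24 ± 0.29 in astrocytes (edgeR adjusted p = 0.279, unadjusted p = 0.000460), 1.79 ± 1.37 in OPCs (adjusted p = 0.849, with 3 UMIs in KO vehicle) and 0.91 ± 0.58 in oligodendrocytes (adjusted p = 0.798). No member was called (0% of astrocyte genes were), so a difference in response between WT and KO was not shown in the fit of all 16 libraries. Without WT DMXAA replicate 3 the astrocyte interaction was 1.35 ± 0.25 with an adjusted p of 0.0240, where 0.162% of genes were called. With DESeq2 it was 1.26 ± 0.31 with an adjusted p of 0.0247, and 0.165% of genes were called.

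Markers of other cells were set beside these results. The summed 8 astrocyte markers in microglia ranged from 319 to 351 CPM in WT vehicle and from 373 to 422 CPM in WT DMXAA, while in astrocytes themselves they ranged from 5192 to 6652 CPM over WT libraries. In OPCs the same markers were at 353 to 487 CPM in WT vehicle and 284 to 367 CPM in WT DMXAA. The 8 microglia markers in astrocytes were at 79.5 to 122 CPM and 71.2 to 122 CPM. The 6 monocyte and neutrophil markers stayed at 3.64 CPM or less in astrocytes and 2.11 CPM or less in OPCs, and ranged from 11.0 to 30.4 CPM in WT DMXAA microglia and from 4.92 to 16.1 CPM in WT vehicle microglia. The 8 excitatory neuron markers in astrocytes were at 250 to 289 CPM in WT vehicle and 205 to 624 CPM in WT DMXAA. The 8 inhibitory neuron markers there were at 225 to 329 and 268 to 719 CPM. In OPCs the excitatory markers were at 283 to 321 and 249 to 530 CPM. The inhibitory ones were at 5234 to 6518 and 4692 to 6250 CPM. Microglia had 297 to 462 and 218 to 860 CPM of the former, and 99.5 to 184 and 78.8 to 708 CPM of the latter. The part of these shifts in the C4b values was not tested.

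C4b has a close relative, C4a, 65209 bases away on chromosome 17 (17:34809092-34823464). Of the 90-base windows of the longest annotated C4b transcript 18.9% occurred unchanged in C4a transcripts, and 17.0% of those in its last 1000 bases. Reads from these stretches cannot be assigned to 1 gene, so the level of each is uncertain. The windows cover spliced transcripts only, whereas reads on unspliced RNA were counted too, so the shares do not measure that uncertainty. C4a stood at 1.36 ± 0.246 CPM in WT vehicle excitatory neurons and 1.13 ± 0.347 CPM in WT DMXAA, and passed the filter in no other class. Its log2 fold change there was -0.19 ± 0.23 in WT (edgeR adjusted p = 1.0).

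C1q itself did not pass the test with DMXAA in any class tested. Border macrophages, its other source, were not tested in WT. Their C1qa stood at 1279, 2111, 174 and 2180 CPM in the WT DMXAA libraries, from 15, 5, 121 and 4 nuclei. In the WT vehicle libraries it was 401 to 1085 CPM, from 2 to 31 nuclei. In microglia C1qa stood at 749, 763, 810 and 1251 CPM in the WT vehicle libraries and 1179, 1206, 190 and 946 CPM in the WT DMXAA libraries. Replicate 3 of DMXAA was far below every other library of the study, and the other 3 lay between the third and the highest vehicle library. The log2 fold change was 0.00 ± 0.34 (edgeR adjusted p = 1.0), and without replicate 3 it was 0.30 ± 0.15 (adjusted p = 0.253). The fall in replicate 3 was shared by C1qb, at 134 CPM against 731 to 791 CPM in the other WT DMXAA libraries, and by C1qc, at 109 CPM against 722 to 776 CPM. In this library 53.7% of microglia held a UMI of at least 1 chain, against 90.9% to 99.1% in the other 7 WT libraries, at a median depth of 2067 UMIs against 1801 to 1982. Of its C1q UMIs, C1qa made up 43.9%, against 39.4% to 44.4% in the other WT DMXAA libraries. C1qb made up 30.9%, against 27.6% to 30.5%, and C1qc 25.1%, against 28.0% to 30.1%. The 8 microglia markers summed to 7542 to 10964 CPM in WT DMXAA microglia and 10876 to 11669 CPM in WT vehicle microglia.

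For C1qb the WT log2 fold change in microglia was -0.24 ± 0.35 with all libraries and 0.06 ± 0.17 without replicate 3. For C1qc it was -0.22 ± 0.35 and 0.09 ± 0.13. None was called, with adjusted p-values (edgeR) from 0.786 to 0.909 over these fits, while 1.87% of all genes were called in WT microglia with all libraries and 8.62% without replicate 3. In KO microglia C1qa stood at 425 to 725 CPM in vehicle and 562 to 615 CPM in DMXAA, with a log2 fold change of 0.01 ± 0.35 (adjusted p = 1.0). The KO DMXAA libraries lay inside the range of the KO vehicle libraries for C1qa and for C1qb (377 to 430 against 274 to 567 CPM). For C1qc they were at 490 to 556 CPM against 312 to 509 CPM, with 3 of 4 above the vehicle range (log2 fold change 0.31 ± 0.35, edgeR adjusted p = 0.904).

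**Figure D3:**
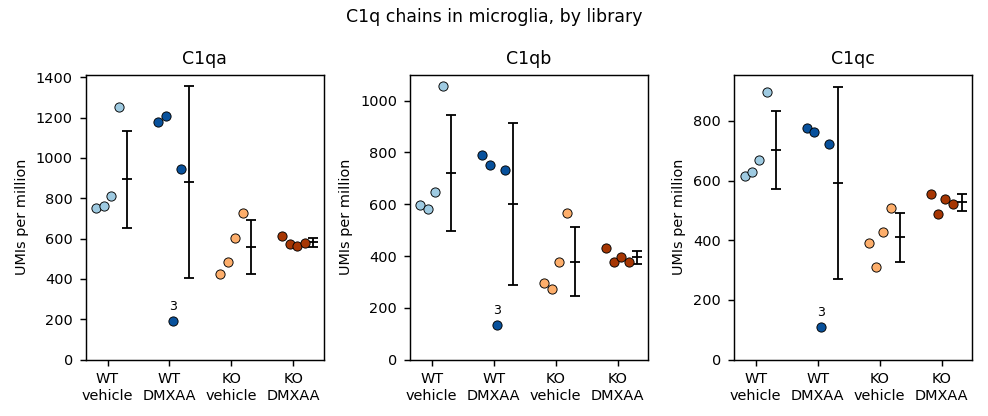
C1qa, C1qb and C1qc in microglia, in CPM (vertical axis, from 0), for each library of the 4 groups. Points are libraries and bars the mean ± SD of 4; WT DMXAA replicate 3, marked 3, lies at 190, 134 and 109 CPM, below all others, and the KO libraries lie at 725 CPM or less.

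The receptors and the inhibitor showed no call with DMXAA. C3ar1 in microglia was at 64.3, 38.5, 34.4 and 41.0 CPM in WT vehicle and 70.5, 83.4, 24.0 and 57 CPM in WT DMXAA (log2 fold change 0.42 ± 0.30, edgeR adjusted p = 0.732), and without replicate 3 the log2 fold change was 0.63 ± 0.23 (adjusted p = 0.0872). C5ar1 in microglia was at 65.8, 38.5, 36.1 and 33.9 CPM and at 59.4, 78.7, 10.8 and 51.6 CPM (0.22 ± 0.39, adjusted p = 0.917; 0.51 ± 0.24 and 0.226 without replicate 3). Replicate 3 was the lowest WT library for both. Serping1 in fibroblasts was at 142, 87.8, 97.0 and 90.1 CPM in WT vehicle and 123, 131, 28.4 and 78.8 CPM in WT DMXAA (-0.14 ± 0.30, adjusted p = 0.986), and without replicate 3 the sign turned (0.20 ± 0.21, adjusted p = 0.849). In astrocytes, where Serping1 was at 1.96 CPM over vehicle libraries, its log2 fold change was 1.42 ± 0.59 in WT (adjusted p = 0.698), and 1.70 ± 0.53 without replicate 3 (adjusted p = 0.134).

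**Figure D4:**
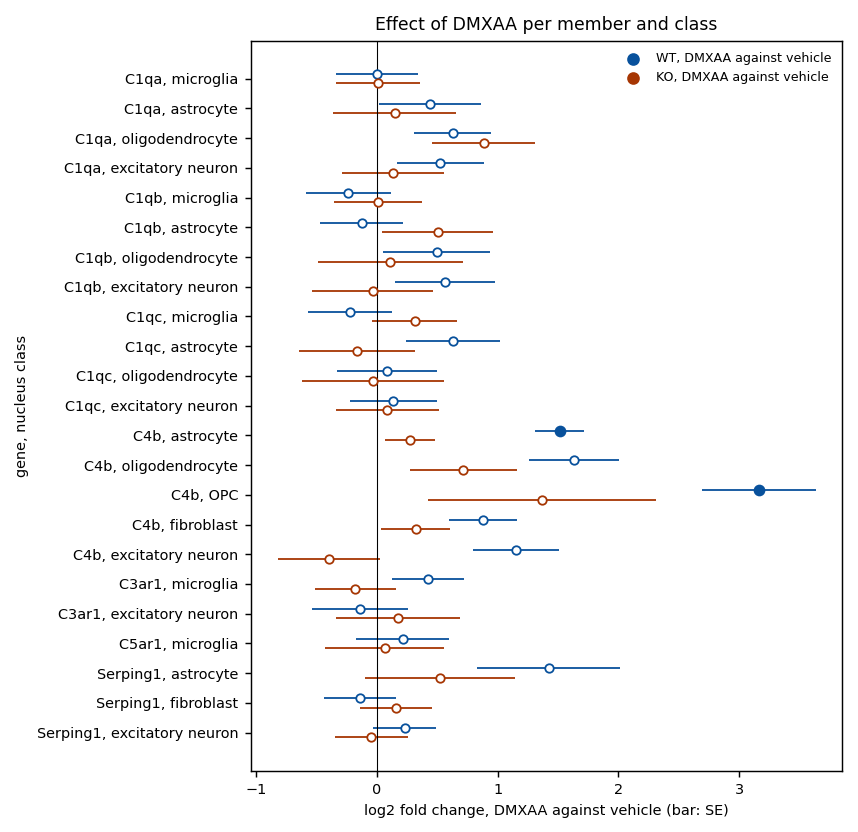
Log2 fold change of DMXAA against vehicle (horizontal axis) for the 23 fitted pairs of gene and class (vertical axis), in WT and KO, with bars of 1 SE. Filled points are the 2 calls, C4b in astrocytes (1.51) and OPCs (3.16) of WT, the latter a pair that passed the count filter only through the WT DMXAA libraries; open points were not called.

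C3 with DMXAA rested on few counts. In ependymal cells the WT vehicle libraries with enough nuclei were at 13.1 and 21.6 CPM and the WT DMXAA ones at 23.3 and 66 CPM, from 2, 3, 2 and 7 UMIs. In KO they were at 16.1, 4.51, 7.06 and 24.2 CPM in vehicle and 0, 0 and 17 CPM in DMXAA. With 2 libraries on each side an exact test could not pass the threshold. Of 23 C3 UMIs in border macrophages, 22 came from WT DMXAA replicate 3, spread over 21 of its 121 nuclei. Of these 21 nuclei, 20 also held a UMI of S100a8, S100a9 or Cd177, 3 held one of Mrc1 or F13a1, and none held C1q. Of its 100 nuclei without C3, 22 held C1q and 57 one of the neutrophil genes. No comparison of border macrophages between treatments was made in WT, since the other WT DMXAA libraries held fewer than 20 of them. In KO, 3 libraries of each treatment held at least 20. Members with enough UMIs there were among the 56 exact permutation tests of members below the filter, whose lowest adjusted p was 0.733. C1qa stood there at 360, 400 and 593 CPM in KO vehicle and 775, 699 and 543 CPM in KO DMXAA.

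Between the vehicle groups, 4 of the 23 pairs were called, all lower in KO, in classes where 29.7% to 49.1% of all genes were called. These 4 pairs reached the count filter through the WT libraries, where they are high. In every KO library C1qb stood at 1.67 CPM or less in astrocytes and C1qc at 2.12 CPM or less in oligodendrocytes. The shared direction was therefore in part set by the filter and is not read as a result. C1qb in astrocytes had a log2 difference of -1.95 ± 0.40 (adjusted p from edgeR = 0.00328; 29.8% of genes called), from 2.88 to 5.45 CPM in WT vehicle to 0.538 to 1.37 CPM in KO vehicle. In oligodendrocytes it was -1.70 ± 0.40 for C1qa (adjusted p = 0.00632; 29.7% of genes called) and -1.52 ± 0.50 for C1qc (adjusted p = 0.0322). For C3ar1 in excitatory neurons it was -1.15 ± 0.45 (adjusted p = 0.0456; 49.1% of genes called). In these classes the means over vehicle libraries were 2.48 CPM for C1qb in astrocytes, 4.41 and 3.62 CPM for C1qa and C1qc in oligodendrocytes and 0.510 CPM for C3ar1 in excitatory neurons. In microglia, the source of C1q, the values were -0.56 ± 0.35 for C1qa, -0.81 ± 0.36 for C1qb, -0.66 ± 0.35 for C1qc and -0.99 ± 0.45 for C5ar1, with adjusted p-values (edgeR) from 0.133 to 0.271 and 13.2% of genes called.

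C1qa in microglia was 749 to 1251 CPM in WT vehicle and 425 to 725 CPM in KO vehicle, with no overlap, as 18.1% of microglial genes did in this direction, and the microglia made up 316 to 371 nuclei per library in WT vehicle and 209 to 258 in KO vehicle. Without WT DMXAA replicate 3, which is in neither group but enters the estimate of the spread, 14 pairs were called, all lower in KO, the 3 C1q chains and C5ar1 in microglia among them (C1qb -0.78 ± 0.17, adjusted p = 0.000666). Those fits called 31% of genes in microglia, 42.8% in astrocytes, 46.2% in oligodendrocytes and 59.1% in excitatory neurons. In microglia these were most of the members fitted, a larger share than that of all genes, and this difference was not tested. With so many genes called in each class, the counts are not read as a result about the members. Age and cohort differ with genotype throughout.

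Of the other 47 genes of the cascade, 34 passed the filter in at least 1 class, in 154 pairs of gene and class. Between the vehicle groups 23 of these pairs were called higher and 12 lower in KO. Of all genes, 13.2% were called in that comparison in microglia, 29.7% in oligodendrocytes, 29.8% in astrocytes and 49.1% in excitatory neurons. Pairs were also called in choroid plexus, OPCs, inhibitory neurons, fibroblasts and ependymal cells, whose shares are not given, and none was called in microglia. The count is not read as a result about these genes. In WT 1 pair was called with DMXAA, in KO none, where the lowest edgeR adjusted p was 0.490 and 9 pairs had an unadjusted p under 0.05. The call with all libraries was Csmd3, one of the large membrane proteins with complement control domains, in microglia. Its level was 4844 to 5090 CPM in WT vehicle microglia and 2191 to 3823 CPM in WT DMXAA microglia, with no overlap, as for 3.41% of genes in this direction, and most nuclei of the 2 groups lie in different microglia clusters at the finer resolution, 7 and 26 (log2 fold change -0.80 ± 0.14, adjusted p = 0.00387; 0.114 in the fit on the WT groups alone). In KO microglia it was 3393 to 4743 CPM in vehicle and 4620 to 5297 CPM in DMXAA (0.29 ± 0.14, adjusted p = 0.878), and the interaction of -1.08 ± 0.20 was called (adjusted p = 0.0299; 0.158% of genes called). The interaction lost the call when any of 12 single libraries was left out, with adjusted p-values up to 0.0963, and when doublets were kept (0.0657). Excitatory neurons held Csmd3 at 1459.6 CPM and OPCs at 3323 CPM in WT vehicle, and the summed excitatory neuron markers in microglia were 297 to 462 CPM in WT vehicle and 218 to 860 CPM in WT DMXAA; their part in the Csmd3 values was not tested.

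In astrocytes and OPCs, the classes where C4b was called, none of the other pathway genes fitted was called in WT. In astrocytes 17 of the 47 genes were fitted, with a median log2 fold change in WT of 0.11 (range -0.31 to 0.94, lowest edgeR adjusted p = 0.599), against a median of 0.02 over all genes tested. In OPCs 14 were fitted, with a median of 0.03 (-0.93 to 0.19, lowest adjusted p = 0.994) against 0.02. In microglia 15 were fitted, with a median of -0.06 (-0.80 to 1.18, lowest adjusted p = 0.00387, that of Csmd3) against 0.04; by role these were 9 membrane regulators, 4 receptors and 2 fluid-phase regulators, and the proteases that activate C4 were below the filter.

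The genes whose levels were most like those of each member were found over 51 class-by-group means of log2(CPM + 1), among 19960 other genes with a highest mean of at least 5 CPM. For C1qa they were Cd300c2, Fcgr1 and P2ry6 (Pearson r = 0.954, 0.953 and 0.952), for C1qb Tyrobp, Pik3cg and C1qc (0.950 each), and for C1qc C1qb, Cd33 and Pik3cg (0.950, 0.945 and 0.939). C3ar1 was most like Ticam2, Siglece and Mir142hg (0.975, 0.972 and 0.972) and C5ar1 like Lrrc25, Ticam2 and Gm32098 (0.977, 0.974 and 0.971). C4b had no such close companions: Apoe, Il18 and Hif3a reached 0.804, 0.768 and 0.733. Serping1 was most like Zic1, Nr2f2 and Zic2 (0.844, 0.839 and 0.815), and C3, whose pattern rests on 1 library, like Gm36355, 4930402F06Rik and Hdc (0.926, 0.924 and 0.914). The points share libraries and depth, and the values are descriptions.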

How the data were processed

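Hippocampal nuclei were profiled with 10x Genomics 3′ v3.1 kits. The authors deposited a UMI count matrix per library; per the labels reads were processed with Cell Ranger 3.1.0 and Seurat 3.0 on mm10, and the file headers name Cell Ranger 6.1.2. Barcodes with 200 to 4000 genes and at most 5% mitochondrial UMIs were kept, and 9327 doublets removed by simulated neighbours. Nuclei were clustered without complement genes (Leiden, resolution 0.5, and 1.0 as an alternative) and classes named from marker lists. Naming thresholds were set after clusters had been seen, and the members and lists were chosen with earlier results of these data known.

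UMIs were summed per library and class of at least 20 nuclei. Each library was a replicate. edgeR 4.0.16 (TMM, filterByExpr, quasi-likelihood) was fitted to all 4 groups per class with at least 2 libraries in each, which left out border macrophages and endothelial cells; libraries with fewer nuclei of a class dropped out of its fit. P-values were adjusted by Benjamini-Hochberg over all genes of the class. Members below the filter had an exact permutation test. Classes were compared by exact sign-flip tests of log2(CPM + 1). DESeq2 1.42.0 and limma 3.58.1 were alternatives. Scripts were tested on simulated data. Named genes were the 8 members, pathway genes called in a DMXAA comparison or the interaction, and the 3 genes with the highest r to each member; C4a, the marker genes named for WT DMXAA replicate 3 and Ifnar1 were added. The search for 1 further promoter motif is not reported here.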

Additional observations from a re-analysis of the deposited data

Results flagged for a closer look

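In groups of 4 libraries, 12 of 96 sets of member values held a library far from the other 3 by Dixon's test. Chance gives about 1 in 20 for continuous normal values, so sets of a few UMIs cannot be held to that rate. In WT DMXAA replicate 3 these were C1qb at 134 CPM and C1qc at 109 CPM in microglia (the other 3 libraries 722 to 791 CPM) and C4b in fibroblasts at 30.2 CPM (others 46.5 to 48.9). In WT vehicle replicate 4, C1qa and C1qb in microglia were at 1251 and 1055 CPM, above 749 to 810 and 583 to 646 in the others. In WT vehicle replicate 1, C5ar1 in microglia was at 65.8 CPM, Serping1 in fibroblasts at 142 CPM and C1qb in oligodendrocytes at 6.5 CPM. In KO, vehicle replicate 4 was flagged for C1qa in astrocytes (2.70 CPM, 9 UMIs against 5 or 6). Vehicle replicate 2 was flagged for C4b in OPCs (0 CPM, 0 UMIs against 1 in each other library of its group). DMXAA replicate 4 was flagged for C5ar1 in microglia (14.8 CPM) and Serping1 in excitatory neurons (0.768 CPM).

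Csmd3 in microglia responded differently in the genotypes by the interaction term, with a log2 value of -1.08 (edgeR adjusted p = 0.0299), a call that was lost when any of 12 single libraries was left out and when doublets were kept. The 22 C3 UMIs in the border macrophage class of WT DMXAA replicate 3 lie in nuclei that no comparison used, against 0 or 1 UMI in each other library.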

How the results depend on the processing

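C4b in WT astrocytes and OPCs was higher with DMXAA under every alternative run. Of 23 member and class pairs, 2 were called with DMXAA in WT; limma-trend called 1 (C4b in OPCs lost, adjusted p = 0.0602), the fit on the 2 WT groups alone 1 (C4b in astrocytes lost, adjusted p = 0.196), and fits that left out 1 library 2 to 4. The 4 were without WT DMXAA replicate 3, where C4b was called in astrocytes, OPCs, oligodendrocytes and microglia; in OPCs and microglia it passed the count filter only through the WT DMXAA libraries. No member was called in KO under any alternative. The interaction called 0 members, 1 with DESeq2 and 0 to 1 with 1 library left out, C4b in astrocytes without WT DMXAA replicate 3. Between the vehicle groups 4 were called, 12 in the fit on 2 groups and 7 with doublets kept. With 1 library left out 2 to 14 were called. They were 2 without WT vehicle replicate 2 or 3 or KO vehicle replicate 1, 2 or 4, and 14 without WT DMXAA replicate 3. The main fits called 13.2% (microglia) to 49.1% (excitatory neurons) of all genes, and those without WT DMXAA replicate 3 called 31% to 59.1%. Shares for the other settings are not given, so these counts are no result about the members.

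Among the other pathway genes, calls in WT went from 1 to 7 without a filter on low counts and to 1 to 7 with 1 library left out, 7 without WT DMXAA replicate 3 or 4 and 2 without WT vehicle replicate 2 or 4. In KO they went from 0 to 3 without the filter, 3 in the fit on 2 groups and 0 to 1 with 1 library left out. In the interaction they went from 1 to 7 without the filter, 0 with doublets kept and 0 to 5 with 1 library left out. Without WT DMXAA replicate 3 the share of all genes called in WT rose too, from 1.87% to 8.62% in microglia and from 0.0166% to 2.7% in oligodendrocytes. In WT microglia it was 1.07% without the filter. Shares for the other settings are not given, so these counts are no result about the pathway. The causes of these changes were not tested.

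Over 2710 comparisons of single members with an alternative none reversed a call, 55 lost one and 38 gained one, of which 52 and 33 were between the vehicle groups. The class with the highest mean changed for C1qb, C1qc or C4b between microglia or astrocytes and border macrophages under some alternatives, and no neighbouring pair of classes passed under any. No paired analysis was possible because the groups compared share no replicate number in the labels; the replicate numbers used here are only names. Depth limits C3, with 115 UMIs in all nuclei, and C4b in vehicle microglia and OPCs, with 6 and 13 UMIs in WT.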
